A study of Mus musculus with 28 samples.

Results

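Clusters of 60 h only ATAC peaks are runs of regions where chromatin was listed as open in C2C12 cells after 60 h of differentiation and at no overlapping place in growing cells. They were chosen by position from the deposited peak lists: broad peaks of the 60 h list that share no base with a peak of the growth medium (GM) list were joined into a chain wherever the gap between neighbouring edges was at most 10 kb, and peaks in chains of 5 or more were kept. This selected 2777 peaks in 452 chains, which is 1.47% of the 189516 peaks of the 60 h list and 6.30% of its 44076 peaks without a GM counterpart. C2C12 is an established line of mouse myoblasts, here of wild-type genotype, that stop dividing and fuse to form myotubes once serum is reduced. For differentiation, cells near confluence were moved to differentiation medium (DM) with 3% horse serum, while growing cells were kept in GM with 20% fetal bovine serum. ATAC-seq, which maps open chromatin by where a transposase can insert, had 2 libraries at 60 h in DM and 2 in GM, and Hi-C, which records contacts between distant stretches of a chromosome, had 3 libraries at 60 h and 3 in GM. RNA-seq covered GM and times of 12, 24, 48, 60 and 96 h in DM, with 3 libraries for each of these 6 groups and 24.2 to 36.4 M counts a library, where M is 10 to the power 6. The replicates are labelled biological, but separate cultures are not described, so the spread that p-values rest on here may be technical.

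The 6 muscle markers examined (Myod1, Myog, Des, Myh3, Ckm and Acta1) summed to 2320 to 2530 CPM (read counts scaled to the size of the library) at 60 h and 609 to 645 CPM in GM. Single muscle markers ran from 38.9 to 1190 CPM at 60 h and from 0.465 to 565 CPM in GM, so the GM sum rested largely on a single gene. Of 18 markers of fat, bone, cartilage, blood, endothelium, epithelium and neurons, 16 lay below 1 CPM in every 60 h library and 15 in every GM library, and the 18 summed to 50.1 to 51.5 CPM at 60 h and 82.6 to 87.0 CPM in GM. The highest single value among the 18 was 45.8 CPM at 60 h and 73.1 CPM in GM, which is most of each sum. In bulk cultures such as these, fewer cells that express a gene and less RNA per cell cannot be told apart.

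Enhancers that lie close together often open together around genes that define a cell type, and the bodies of heavily transcribed genes can also become more accessible along their length. In muscle differentiation the MyoD family of transcription factors binds E-boxes, of which CAGCTG is a preferred form, and MEF2 factors act with them at genes of the contractile apparatus. That apparatus is built of sarcomeres, in which titin, the product of Ttn, spans from the edge of the unit to its middle, and it is triggered by calcium released through the ryanodine receptor Ryr1.

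Few of the peaks lay on promoters. A promoter window, here 250 bases before to 50 bases after an annotated gene start, was overlapped by a peak of a chain in 26 of 32851 windows, and these belonged to 24 genes. Of the 11 of these genes that were tested, 8 were called higher by at least 2-fold at 60 h, against 8.95% of all 15303 genes tested. The lowest of the 8 at 60 h were Tceal5, Chil1 and Rbfox1, with means of only 0.252, 0.288 and 0.485 CPM. Their GM means were 0, 0.0332 and 0 CPM, and Mybpc1, also of the 8, had 0.0323 CPM in GM. At such levels a gene passed the filter on low counts only through DM libraries and could hardly be called lower. The 8 of 11 is therefore no fair match for the 8.95% and is given as a description. The windows of 4 of the 8 hold CAGCTG or a match to the MEF2 consensus and are shown here, while those of the other 4, Syn2, Arhgap28, Tceal5 and Chil1, hold neither. The 4 were picked for holding such a match, so its presence in them is no result, and binding was not tested. Capitals mark the E-box CAGCTG, its relative CACCTG on either strand, and any match to the MEF2 consensus, and each sequence is given 5′ to 3′ on the strand of its gene, from RefSeq with build GRCm38.p6.
Mybpc1: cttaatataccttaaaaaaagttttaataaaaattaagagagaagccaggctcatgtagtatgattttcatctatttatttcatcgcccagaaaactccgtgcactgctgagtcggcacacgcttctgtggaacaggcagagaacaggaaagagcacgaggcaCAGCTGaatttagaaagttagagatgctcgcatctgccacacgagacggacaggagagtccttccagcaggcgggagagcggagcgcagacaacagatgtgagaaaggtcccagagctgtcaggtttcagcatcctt
Rbfox1: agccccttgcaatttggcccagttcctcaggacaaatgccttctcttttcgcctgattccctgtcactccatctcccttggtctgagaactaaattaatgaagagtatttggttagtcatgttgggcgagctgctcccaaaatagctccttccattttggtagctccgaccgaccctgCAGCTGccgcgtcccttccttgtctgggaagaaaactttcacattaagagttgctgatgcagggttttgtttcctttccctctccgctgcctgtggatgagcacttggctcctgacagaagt
Asb5: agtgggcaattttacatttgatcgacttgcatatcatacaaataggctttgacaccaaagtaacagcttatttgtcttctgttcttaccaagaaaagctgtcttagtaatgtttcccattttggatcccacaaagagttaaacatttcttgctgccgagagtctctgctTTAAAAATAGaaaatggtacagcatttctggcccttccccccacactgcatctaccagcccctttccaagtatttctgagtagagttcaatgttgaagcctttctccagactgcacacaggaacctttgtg
Pdcd4: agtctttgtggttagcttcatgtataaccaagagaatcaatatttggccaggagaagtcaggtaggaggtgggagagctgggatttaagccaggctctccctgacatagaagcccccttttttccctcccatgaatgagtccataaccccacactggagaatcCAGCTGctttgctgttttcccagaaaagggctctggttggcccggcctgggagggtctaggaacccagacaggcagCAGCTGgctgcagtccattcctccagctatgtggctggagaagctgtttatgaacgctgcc

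The Mybpc1 window, chr10:88605103-88605402 on the minus strand, holds 1 CAGCTG and was overlapped by a peak of 389 bases with a fold enrichment of 2.48 over local background, as the authors' peak caller gave it. The Rbfox1 window, chr16:7069585-7069884 on the plus strand, holds 1 CAGCTG under a peak of 868 bases with a fold of 5.38. The Asb5 window, chr8:54571189-54571488 on the plus strand, holds 1 MEF2 match and no CAGCTG, with a peak of 363 bases at a fold of 1.80. The Pdcd4 window, chr19:53891981-53892280 on the plus strand, holds 2 CAGCTG under a peak of 916 bases with a fold of 2.44. CAGCTG, which reads the same on both strands, occurred in 12 of the 26 windows (46.2%), 34.8% of the 549 windows overlapped by any 60 h only peak and 16.3% of all 32851 windows. CACCTG or CAGGTG, the same site read on either strand, occurred in 4 of the 26 (15.4%), 21.7% of the 549 and 20.2% of all windows. TGANTCA, the AP-1 site, occurred in 2 of the 26 (7.69%), 6.92% of the 549 and 7.81% of all windows. The MEF2 consensus occurred in 1 of the 26 (3.85%), 7.29% of the 549 and 3.19% of all windows. On both strands GGAATG, the TEAD site, was found in 6 of the 26 (23.1%), 16.4% of the 549 and 14.7% of all windows, and AACCACA, the RUNX site, in 3 (11.5%), 7.65% and 5.27%. The SRF CArG box was in none of the 26 windows, 1.09% of the 549 and 1.63% of all windows. These matches are letters in a window and no record of binding, and several of the 26 windows overlap one another or share a peak.

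Mybpc1, which encodes a slow-type myosin-binding protein of the sarcomere, had 2.16, 1.83 and 1.68 CPM in the 60 h libraries, against 0, 0.0306 and 0.0665 CPM in the GM libraries. Levels were low throughout. Summed over libraries it had 151 counts at 60 h and 3 in GM, a ratio of 56.0 after scaling (95% exact interval 18.8 to 275, counting error only), and it was called with an adjusted p of 5.3e-10 by edgeR's quasi-likelihood test and Benjamini-Hochberg adjustment, the test behind every call below. Rbfox1, a splicing regulator of muscle and neurons, had 0.623, 0.306 and 0.526 CPM at 60 h and 0 CPM in all 3 GM libraries. It was called higher (adjusted p = 1.3e-05, edgeR). Its 39 counts at 60 h, set against an assumed floor of 3 counts over the GM group, gave a ratio of 14.5 after scaling, without an interval. No 60 h library of either gene overlapped the GM range. Asb5, an ankyrin repeat protein of muscle, had 275, 285 and 287 CPM at 60 h, against 77.6, 80.2 and 82.4 CPM in GM. Pdcd4, an inhibitor of translation initiation, had 29.2, 33.3 and 31.7 CPM at 60 h, against 15.1, 12.6 and 13.9 CPM in GM. Neither gene's groups overlapped, and the log2 fold changes were 1.82 ± 0.057 for Asb5 and 1.18 ± 0.075 for Pdcd4 (± SE of the fit, here and below, n = 3 libraries per group; adjusted p = 6.2e-17 and 9.4e-12, edgeR). These 4 genes were picked once their values were known.

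Most chains were short. Of the 452 chains, 260 held 5 peaks, 137 held 6 or 7 and 55 held 8 or more, and the longest held 104. At the edge of the rule, 646 chains of 4 peaks fell just outside it beside the 260 chains of 5 just inside. Of the gaps between neighbouring 60 h only peaks, 955 were 9 to 10 kb long and were bridged, while 866 were 10 to 11 kb long and were not. The chains spanned a median of 22.3 kb (interquartile range 17.5 to 27.5 kb, from 6.22 to 278 kb) and 10.9 Mb in all, of which the peaks themselves covered 1.34 Mb. Within a chain the peaks covered a median of 11.3% of the span. The same rule with the lists exchanged found 711 GM only peaks in 125 chains, which is 1.99% of 35654 GM only peaks, and none of these chains held more than 9 peaks. There is 1 peak list per condition, so the difference between 452 and 125 chains was not tested.

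**Figure D1:**
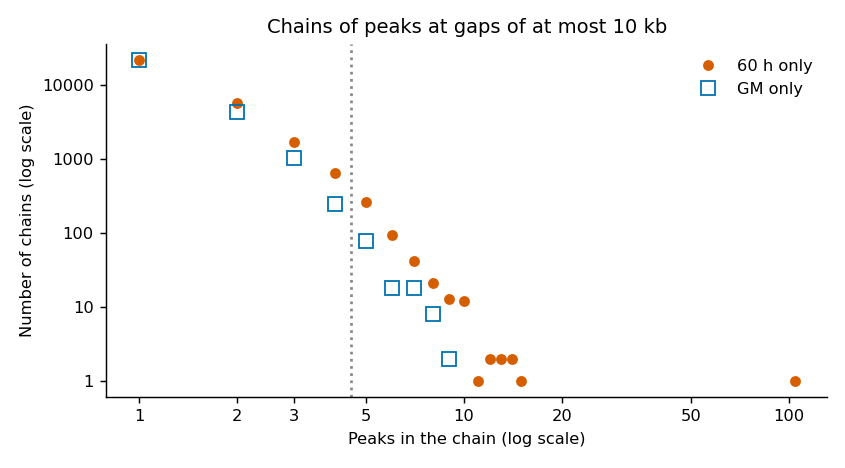
Number of chains (y axis, log scale) by number of peaks in the chain (x axis, log scale) for 60 h only peaks (filled circles) and GM only peaks (open squares), with a dotted line at the limit of 5 peaks. Isolated peaks were about as many in both lists, 22074 at 60 h and 22049 in GM, while chains of 5 numbered 260 at 60 h and 79 in GM and the chain of 104 peaks stands alone.

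The peaks in chains were narrow and weak, as 60 h only peaks were in general. Their width had a median of 363 bases, against 285 bases for isolated 60 h only peaks and 640 bases for 60 h peaks shared with GM. Their median fold enrichment was 1.69, against 1.72 for isolated and 3.12 for shared peaks, and the highest was 8.97. Their −log10 q, as the authors' caller gave it, had a median of 2.93, against 3.15 for isolated and 30.4 for shared peaks. A q above 0.05 was listed for 863 of the 2777 peaks (31.1%), against 26.2% of the isolated and 5.82% of the shared peaks. These values come from the list that chose the peaks and are given as a description.

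Chains differed among themselves in strength. In 153 chains the median −log10 q was at least 5, in 215 it lay from 1.3 to 5, and in 84 it lay under 1.3, which is a q above 0.05. The 84 weakest chains lay on a protein-coding gene in 90.5% of cases, against 69.3% of the 153 strongest, and their median fold was 1.45, against 2.10. The highest median fold of any chain, 4.19, belonged to the 7 peaks at chr10:88590797-88616804 (mm10) that start in Mybpc1 and run past its 5′ end. The chain of 8 peaks within Rbfox1 had a median fold of 3.48 and the chain of 7 at Actn2, the gene of the Z-disc protein alpha-actinin 2, had 2.99 with a single peak at 8.39.

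A large share of the chained peaks lay in gene bodies. Of the 2777 peaks, 69.7% overlapped a protein-coding gene and 76.0% any RefSeq gene, against 51.2% and 59.6% of isolated 60 h only peaks and 56.6% and 65.5% of shared peaks. The 711 GM only peaks in chains of 5 or more had shares of 63.9% and 71.6%, against 50.3% and 59.4% of all GM only peaks, so a large share in genes was seen in chains of both lists. A promoter window was touched by 23 of them (0.828%), against 1.10% of isolated and 8.52% of shared peaks, and the median distance to the nearest gene start was 38.8 kb, against 33.5 kb and 23.3 kb. By chain, 337 of 452 (74.6%) overlapped a protein-coding gene, 255 lay wholly inside one and 68 overlapped no annotated gene. Chains of 4 peaks overlapped a protein-coding gene in 66.1% of cases. The chained peaks did not have their regions to themselves: 364 chains (80.5%) also held a peak shared with GM, 886 such peaks in all, and 133 chains held a GM only peak. Peaks of 1 chain share their region and are not independent, so these shares are a description without a test.

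**Figure D2:**
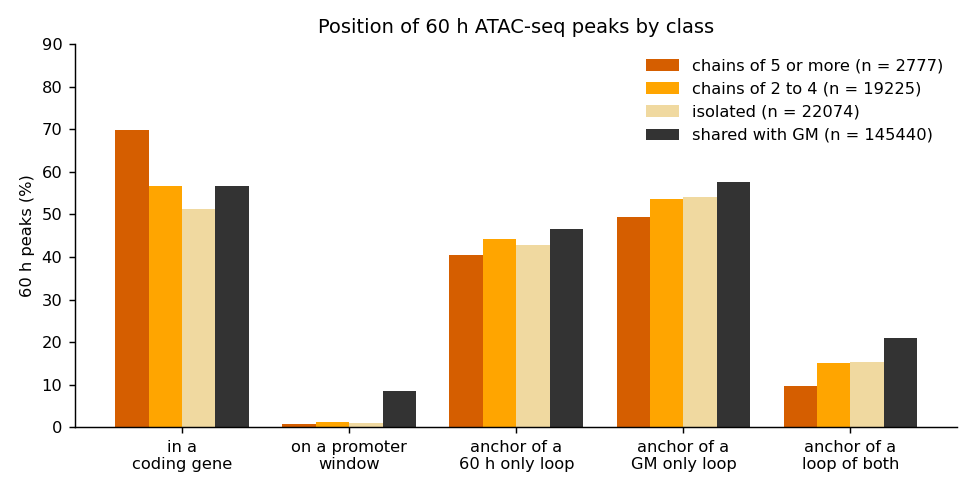
Share of 60 h ATAC-seq peaks (y axis, percent) that overlap a protein-coding gene, a promoter window or an anchor of a loop called at 60 h only, in GM only or in both, for chained, less clustered, isolated and shared peaks. The bars for chains of 5 or more are the highest for coding genes, 69.7%, and the lowest in each of the other 4 positions.

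Hi-C gave the contacts of the same regions. The deposited list holds 24031 loops called at 60 h only, 32587 in GM only and 7114 in both, each with 25 kb anchors. An anchor of a 60 h only loop covered 40.5% of the chained peaks, against 42.9% of isolated and 46.6% of shared peaks. For GM only loops the shares were 49.4%, 54.0% and 57.6%, and for loops of both conditions 9.72%, 15.4% and 21.0%. For each kind of loop the chained peaks had the lowest share of the 3 classes, with no test made. At the level of topologically associating domains (TADs), called on 40 kb bins, 420 of 452 chains (92.9%) lay inside 1 of the 2368 domains of 60 h and 414 (91.6%) inside 1 of the 2416 domains of GM. A domain boundary fell in 17 chains (3.76%) at 60 h and in 25 (5.53%) in GM. It fell in 14 of these in both conditions, in 3 at 60 h only and in 11 in GM only. The 3 at 60 h only were the chains at Mybpc1 and Pdcd4 and 1 chain without a protein-coding gene. Chains of 4 peaks, just outside the rule, had similar shares, with 91.8% inside 1 domain of 60 h and a boundary of 60 h in 4.95%.

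The longest chain lay over Ttn, the gene of the giant spring protein titin. Ttn occupies chr2:76703980-76982557 (mm10, minus strand), 278.6 kb, and the chain occupies chr2:76699505-76977549. It began 5.0 kb inside the 5′ end of the gene and ended 4.5 kb past the 3′ end, so its extent was close to that of the gene. Of the 104 peaks, which are 3.75% of all chained peaks, 103 lay in the gene, 3.70 per 10 kb, and covered 41.1% of it. In the 100 kb on either side there were 1 and 15 peaks of the 60 h only kind, the 1 being beyond the 3′ end.

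Enrichment was low along all of Ttn. The fold of the 103 peaks ran from 1.19 to 1.97 with a median of 1.43, and 46 of the 103 had a q of at most 0.05. The 11 shared peaks of the 60 h list within the gene had folds of 1.77 to 3.72, the highest at the gene start, and covered 4.23% of it. The GM list held 13 peaks in the gene, covering 1.72%, and each overlapped a 60 h peak. Their folds in the GM list ran from 1.47 to 6.23. All peaks of the 60 h list together covered 45.3% of Ttn. The lists were called separately and covered length moves with how much was called, so 45.3% and 1.72% are not a test of a change. With 60 h peaks restricted to a q of at most 0.05, a setting added after the data were seen, 44 peaks remained chained there in 4 chains, and with −log10 q of at least 5 no chain remained over Ttn.

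**Figure D3:**
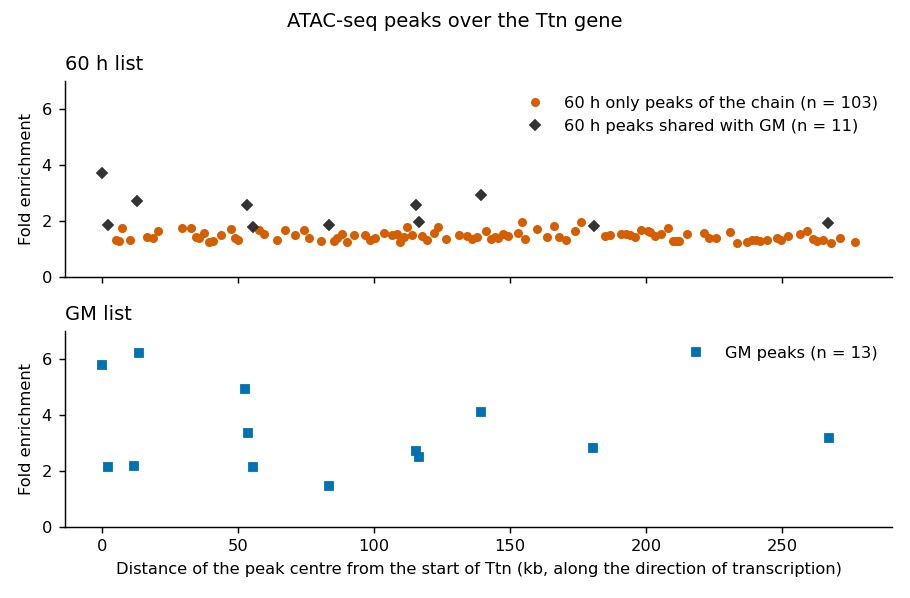
Fold enrichment (y axis) of ATAC-seq peaks by distance of the peak centre from the start of Ttn in kb, along the direction of transcription (x axis), in the 60 h list (upper panel; circles are peaks of the chain, diamonds are peaks shared with GM) and in the GM list (lower panel). The 103 peaks of the chain lie between 1.19 and 1.97 along the whole gene, while the GM list has 13 peaks at spaced positions.

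Ttn transcripts were at 2750, 2640 and 2500 CPM in the 60 h libraries, against 251, 229 and 236 CPM in the GM libraries. The groups were far apart, and Ttn rose by 3.46 ± 0.165 on the log2 scale, 11.0-fold (adjusted p = 6.8e-14, edgeR). Over the time course its mean was 239 ± 10.8 CPM in GM, 312 ± 15.0 at 12 h, 862 ± 323 at 24 h, 2970 ± 352 at 48 h, 2630 ± 126 at 60 h and 7690 ± 694 at 96 h (SD, n = 3). At 24 h the third library, with 1230 CPM, stood apart from the other two, with 717 and 637 CPM. Both conditions had a domain boundary within the gene, and 7 loops of 60 h only, 5 of GM only and 1 of both had an anchor in it.

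Transcripts of the genes under the chains were measured independently of the peaks. A chain gene is a gene of the count table whose RefSeq span overlaps the span of a chain. There were 392, of which 294 passed the filter on low counts and were tested, 286 of them protein-coding. At 60 h, 178 of the 294 (60.5%) were called higher than in GM, against 33.1% of all 15303 genes tested, and 40 (13.6%) were called lower, against 32.2%. The median log2 fold change was 0.34 over the chain genes and 0.007 over all genes. The other 76 were not called. A change of at least 2-fold was reached by 71 of the genes called higher and 4 of those called lower, where all genes tested gave 8.95% and 7.68%. All 3 libraries at 60 h lay above all 3 in GM for 185 of the 294 chain genes, against 35.5% of all genes, and below them for 50, against 34.8%.

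Chain genes were long, with a median span of 135 kb, so other classes of genes are set beside them. Among the 3343 tested genes of at least 50 kb without a chain, 37.9% were called higher and 35.8% lower, with a median of 0.014 on the log2 scale. Genes with an isolated 60 h only peak and no chain were called higher in 38.7% of 4402 cases and lower in 35.0%, and genes with no 60 h only peak in 30.1% and 35.0% of 8228. The share called higher was 72.9% of 48 genes whose largest chain had 8 or more peaks, 62.5% of 96 with 6 or 7 and 55.3% of 150 with 5. By strength of the chain, it was 63.5% of 104 genes with a median −log10 q of at least 5, 61.6% of 125 from 1.3 to 5 and 53.8% of 65 under 1.3. Of 27 tested genes on more than 1 chain, 22 were called higher, 4 lower and 1 neither. On the 125 GM only chains the calls ran the other way, with 11 of 74 tested genes (14.9%) called higher and 48 (64.9%) lower at 60 h. These shares are a description, since genes side by side can share a chain.

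The difference between chain genes and all genes was small at 12 h. At 12 h, 67 chain genes (22.8%) were called higher and 64 (21.8%) lower, against 17.8% and 17.2% of all genes. At 24 h, 181 (61.6%) were higher and 28 (9.52%) lower, against 30.2% and 30.6%. At 48 h, 203 (69.0%) were higher and 34 (11.6%) lower, against 32.5% and 32.8%. At 96 h, 204 (69.4%) were higher and 39 (13.3%) lower, against 34.8% and 34.1%. The medians of the chain genes were −0.02 at 12 h, 0.32 at 24 h, 0.44 at 48 h, 0.34 at 60 h and 0.55 at 96 h on the log2 scale, and the median of all genes lay between −0.001 and 0.008. All these contrasts share the GM libraries.

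**Figure D4:**
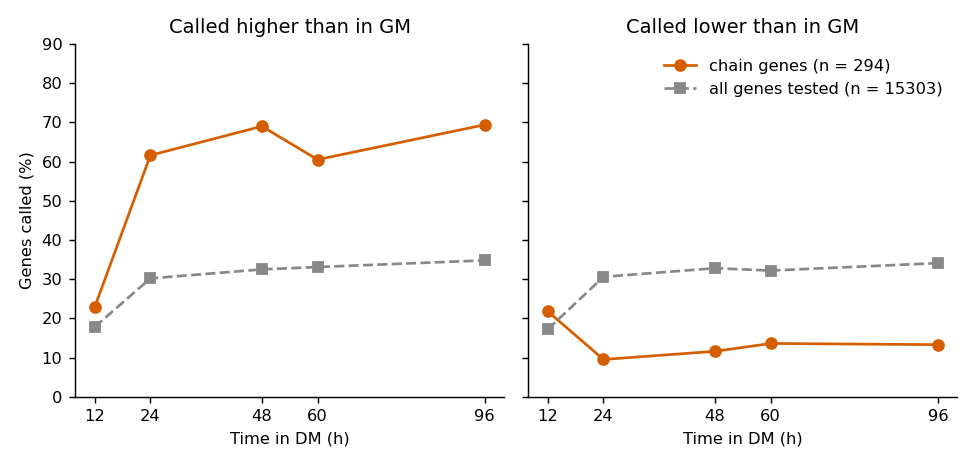
Share of genes called higher (left) or lower (right) than in GM (y axis, percent) by time in DM in hours (x axis), for the 294 chain genes (circles) and all 15303 genes tested (squares). From 24 h on, 60.5 to 69.4% of the chain genes are called higher, against 30.2 to 34.8% of all genes.

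Genes of the sarcomere, the longest of the lists, gave the largest number of chain genes. Of 48 sarcomere genes, 5 were chain genes, among them Ttn, Myom2, Actn2 and Mybpc1, and all 5 rose, as did 44 of the 45 tested genes of the list, so that a rise does not set the 5 apart. That is 10.4% of the list, where 1.12% of all 34899 placed genes and 2.11% of the 13960 tested and placed genes were chain genes. Long genes are more often chain genes: the median span was 135 kb for chain genes and 20.8 kb for all tested and placed genes. Of 3581 tested genes of at least 50 kb, 3343 had no chain. Neither this list nor those below was matched for length. Myom2, the M-band protein myomesin 2, was at 280, 252 and 283 CPM at 60 h, against 28.3, 28.0 and 26.2 CPM in GM. Actn2 was at 2.58, 1.91 and 1.84 CPM at 60 h, against 0.259, 0.122 and 0.133 CPM in GM. No library at 60 h overlapped the GM range in either gene, and Myom2 rose by 3.30 ± 0.055 and Actn2 by 3.61 ± 0.344 on the log2 scale (adjusted p = 3.3e-21 and 6.9e-09, edgeR). Both were higher again at 96 h, at means of 637 CPM for Myom2 and 13.7 CPM for Actn2.

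Of 21 genes of calcium handling and the triad, 3 (14.3%) were chain genes and all 3 rose, as did 19 of the 20 tested genes of the list. Ryr1, the calcium release channel of the sarcoplasmic reticulum, had 16 peaks in 2 chains. It was at 82.8, 73.4 and 80.0 CPM at 60 h, against 8.90, 8.40 and 10.5 CPM in GM, so the groups were well separated, with a log2 fold change of 3.09 ± 0.111 (adjusted p = 5.3e-16, edgeR). Cacna2d1, an auxiliary subunit of voltage-gated calcium channels, rose by 0.92 ± 0.056 over a chain of 5 peaks. Atp2a2, the calcium pump SERCA2, rose by 0.42 ± 0.037, also with 5 peaks. Adjusted p was 4.3e-12 for Cacna2d1 and 2.4e-09 for Atp2a2 (edgeR).

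Other lists gave 1 chain gene or none. Among 14 myogenic factors it was Tead1, a TEAD transcription factor, which fell by 0.52 on the log2 scale (SE 0.149, adjusted p = 4.3e-03, edgeR), at 25.7, 25.7 and 23.7 CPM at 60 h against 39.3, 32.6 and 35.8 CPM in GM. Its change from GM differed in sign between times: −0.77 at 12 h and 0.68 at 96 h were called (adjusted p = 3.4e-04 and 2.0e-04, edgeR), while 0.17 at 24 h and 0.04 at 48 h were not. The third 24 h library, with 56.2 CPM, stood apart from the first and second, with 34.5 and 30.9 CPM, so the positive value at 24 h rests on it. The dystrophin complex had Dtna, the dystrobrevin alpha gene (log2 fold change 0.90 ± 0.048), muscle signalling had the kinase Akt2 (0.46 ± 0.040) and the matrix list had Lama2, the laminin alpha 2 chain of the muscle basement membrane (1.09 ± 0.072). Each of these 3 was called higher (adjusted p = 4.6e-13, 2.3e-09 and 1.7e-11, edgeR). In the 4 lists as a whole, 8 of 13 tested myogenic factors were called higher and 3 lower, 13 and 2 of 16 genes of the dystrophin complex and cytoskeleton, 13 and 3 of 20 signalling genes and 12 and 3 of 17 matrix genes. No gene of the lists for the neuromuscular junction, fusion, muscle energy, cell cycle, cell cycle exit, Id and AP-1 factors or other cell types lay under a chain, and at 1.12% of all placed genes lists of 10 to 18 genes would hold few or none. In these lists, 9 of 9 tested junction genes and 8 of 11 tested fusion genes were called higher and 15 of 15 cell cycle genes lower.

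Of the 12 chains with the most peaks, the 11 after Ttn held 10 to 15 peaks and lay on genes with mixed changes. Chains of 10 peaks numbered 12 in all, and the 3 that entered had the largest summed peak length, so 9 tied chains are not described. Macf1, a linker of actin and microtubules, had 15 peaks over 44.8 kb at chr4:123356099-123400854 (mm10) with a median fold of 1.34. It was at 1210, 1100 and 1160 CPM at 60 h, against 696, 687 and 692 CPM in GM, a log2 fold change of 0.74 ± 0.065 (adjusted p = 1.6e-09, edgeR) without overlap of the groups. Ext1, a glycosyltransferase of heparan sulfate synthesis, held 35 peaks in 4 chains, the longest of 14, and rose by 0.87 ± 0.045 to 311, 320 and 329 CPM at 60 h, against 177, 166 and 181 CPM in GM. Runx1, a transcription factor of blood and regenerating muscle, had 13 peaks and was at 69.9, 65.4 and 69.9 CPM at 60 h, against 41.3, 33.9 and 41.6 CPM in GM (0.82 ± 0.074). Celf2, an RNA-binding splicing factor, had 19 peaks in 2 chains and rose by 0.82 ± 0.066. Dclk1, a microtubule-associated kinase, had 25 peaks in 3 chains and was at 287, 257 and 296 CPM at 60 h, against 58.6, 53.5 and 59.6 CPM in GM (2.29 ± 0.062). Adjusted p was 2.3e-13 for Ext1, 3.0e-09 for Runx1, 4.7e-10 for Celf2 and 5.3e-18 for Dclk1 (edgeR).

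Not all of these genes rose. Hdac4, a histone deacetylase that represses MEF2 targets, had 14 peaks with a median fold of 2.21, and it was at 53.8, 56.7 and 58.4 CPM at 60 h and 58.6, 55.9 and 57.1 CPM in GM. The groups overlapped and the difference was −0.02 ± 0.056 on the log2 scale (adjusted p = 0.75, edgeR). At other times Hdac4 was called, lower at 12 h (−0.46) and higher at 24, 48 and 96 h (0.27, 0.21 and 0.37). Notch2, a receptor that holds muscle precursors undifferentiated, had 13 peaks with a median fold of 1.33 and 2 of the 13 at a q of at most 0.05. It was called lower, at 214, 210 and 210 CPM at 60 h against 252, 248 and 260 CPM in GM, a log2 fold change of −0.26 ± 0.064 (adjusted p = 1.1e-03, edgeR). It was also called lower at 12 h (−0.53) but higher at 24 h (0.30), 48 h (0.21) and 96 h (0.27), with means of 311, 292 and 305 CPM at those 3 times against 253 CPM in GM. Pbx3, a homeobox partner of myogenic factors, had a chain of 10 peaks that starts outside the gene and was not called, at −0.13 ± 0.086 (adjusted p = 0.18, edgeR), while its changes of −0.42 at 24 h, −0.36 at 48 h and 0.44 at 96 h were. A chain of 11 peaks lay across Sh3rf3 and Sept10, which rose by 1.24 ± 0.160 and 0.22 ± 0.051 (adjusted p = 7.0e-07 and 8.2e-04, edgeR).

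The chain genes with the largest rises, among those whose mean log2 CPM reached 3, were Rbm24, Tmem182, Ogn, Ttn, Myom2, Cp, Ryr1, Ccdc141, Dclk1, Acsl3, Cyp51 and Nid2. Rbm24, an RNA-binding protein that directs muscle splicing, was at 41.5, 37.4 and 42.8 CPM at 60 h, against 0.778, 0.825 and 1.10 CPM in GM, a log2 fold change of 5.49 ± 0.119 (adjusted p = 1.3e-19, edgeR). Its chain of 5 peaks begins at the 3′ end of the gene, in which 2 of the 5 lie. Tmem182, a membrane protein of muscle, was at 45.2, 41.6 and 47.2 CPM at 60 h, against 1.19, 1.13 and 1.16 CPM in GM (5.26 ± 0.111). Ogn, the matrix proteoglycan osteoglycin, was at 1240, 1260 and 1260 CPM at 60 h, against 99.3, 96.8 and 126 CPM in GM (3.55 ± 0.077). In all 3 genes each 60 h library lay far above each GM library. Adjusted p was 8.6e-20 for Tmem182 and 1.3e-19 for Ogn (edgeR).

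The other rises were smaller. Cp, the copper protein ceruloplasmin, rose by 3.19 ± 0.062, Ccdc141, next to Ttn on chromosome 2, by 2.66 ± 0.058, and Nid2, the basement membrane protein nidogen 2, by 2.15 ± 0.070. Acsl3, which activates fatty acids, rose by 2.17 ± 0.052 and Cyp51, an enzyme of cholesterol synthesis, by 2.17 ± 0.046. Both lipid genes had their highest mean at 24 h, 440 CPM for Acsl3 and 463 CPM for Cyp51, against 371 and 189 CPM at 96 h. Rbm24, Tmem182, Ttn, Myom2, Cp, Ryr1, Ccdc141, Dclk1 and Nid2 had their highest mean at 96 h, and Ogn had 1280 CPM at 48 h and 1050 CPM at 96 h.

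The largest falls among chain genes at that level were modest. Cdc45, a component of the replicative helicase, was at 16.6, 18.2 and 16.6 CPM at 60 h, against 35.2, 36.8 and 33.8 CPM in GM, a log2 fold change of −1.04 ± 0.067 (adjusted p = 1.1e-11, edgeR). Its chain also covers Cldn5, and 2 of the 5 peaks lie in Cdc45. Cdk6, a kinase that drives entry into S phase, was at 73.4, 68.8 and 70.8 CPM at 60 h, against 124, 120 and 115 CPM in GM (−0.75 ± 0.062, adjusted p = 8.0e-10, edgeR). Neither gene's groups overlapped. Rere, a nuclear co-regulator, changed by −0.98 ± 0.185, Sema5a, an axon guidance protein, by −0.77 ± 0.061, Nup214, a nuclear pore protein, by −0.72 ± 0.074 and Zfhx4, a zinc finger homeobox factor, by −0.66 ± 0.138, all called lower. At 96 h the log2 fold change from GM was −2.73 for Cdc45, −0.80 for Cdk6 and −0.62 for Sema5a, all called lower, and 0.28 for Rere, −0.09 for Nup214 and −0.01 for Zfhx4, none of them called.

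**Figure D5:**
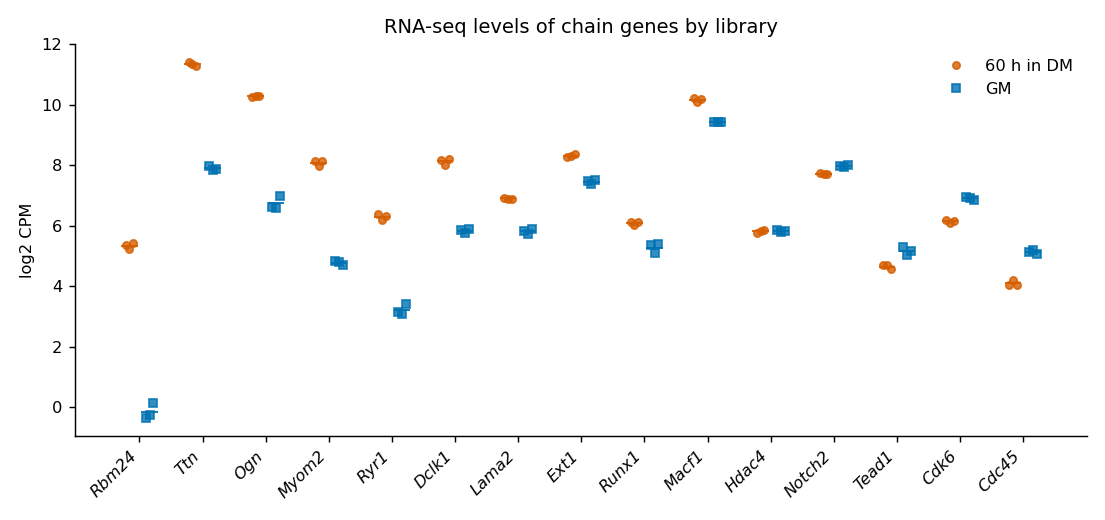
RNA-seq level in log2 CPM (y axis) of 15 chain genes (x axis) in the 3 libraries at 60 h in DM (circles) and the 3 in GM (squares), with a line at each group's mean of log2 CPM. The genes from Rbm24 to Macf1 lie higher at 60 h, Hdac4 overlaps, and Notch2, Tead1, Cdk6 and Cdc45 lie lower.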

How the data were processed

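The chains, gene lists and tests were chosen with earlier results of these data known. RNA-seq values are whole-number counts per gene, deposited by the authors without scaling. The submitters' processing notes name mm10, STAR, RSEM 1.3.0, DESeq2, edgeR, SAMtools 1.9, Bowtie2 2.2.6, MACS2 2.2.7, deepTools 2.5.2 and HiC-Pro 2.9.0, with no roles. Libraries are strand-specific per the labels; no source used here states if counting used strand, so overlapping genes are uncertain. The deposited broad peak lists, 1 per condition, give a fold (a ratio) and a −log10 q value per peak, made by the authors and used here only within a list; no source used here states if the 2 libraries were pooled. The score columns of the deposited peak and boundary lists, as the authors gave them, and the domains' and loops' other columns were not used.

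All 18 libraries were fitted with edgeR 4.0.16 in R 4.3.3 (TMM, filterByExpr by group, quasi-likelihood F test, group alone). Calls used a Benjamini-Hochberg adjusted p under 0.05 over 15303 genes. CPM was computed from the counts and TMM sizes. On simulated counts of the 60 h contrast over 13211 genes, the test recovered 57 of 67 genes changed 1.5-fold, all 67 changed 2-fold and all 66 changed 4-fold, and called 3 unchanged genes. The simulation gave every gene the same spread and left out genes with few counts. Its rates therefore do not carry over to noisier genes or to genes with low counts. Of 49089 genes, 34899 were matched by symbol to a RefSeq GRCm38.p6 span, as were 13960 of those tested. Chain steps used Python 3.11.15 and pandas 2.3.3. Named are the 12 chains with the most peaks (ties by summed peak length), the 12 largest rises and 6 largest falls of chain genes whose mean log2 CPM reached 3, and listed genes under chains; 1 of these genes is not reported here. Peak sequences could not be read without a genome, so the planned motif count in 300-base peak windows was replaced by promoter windows. Alternatives were other scaling, filter, tool, block, left-out libraries, gaps, chain sizes, peak filters and gene assignments; 60 h peaks with q of at most 0.05 and the fit without the third 24 h library were added after seeing the data.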

Additional observations from a re-analysis of the deposited data

How the results depend on the processing

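The share of chain genes called higher stayed above the share called lower under every alternative run. RLE scaling, DESeq2, no count filter and the 6 libraries of 60 h and GM alone gave 171 to 174 genes higher and 40 to 45 lower. Between 283 and 364 chain genes were tested in these fits, and the median moved to 0.30 only without the count filter. The same replicate numbers did not mark shared deviations (correlations −0.001, −0.059 and 0.08), and with a replicate block 177 were higher and 41 lower. Leaving out 1 library of 60 h or GM gave 162 to 176 higher, 35 to 44 lower and medians of 0.306 to 0.368; without the third 24 h library, which was tried after seeing the data, the counts were 175 and 46 at 60 h, and 174 and 31 at 24 h, and those at 12, 48 and 96 h moved by less than 1.5 times. With genes whose start lay within 10 kb of a chain, 44 of 71 tested were higher, 7 lower and the median was 0.455. With genes within 50 kb, 316 of 575 tested were higher, 110 lower and the median was 0.262. The chains depended strongly on the rule. A gap of 5 kb gave 567 peaks and 86 chains, with 37 of 56 tested genes higher (66.1%) and 7 lower (12.5%). The median was 0.691, and 32.3% of peaks lay in anchors of 60 h only loops. A gap of 20 kb gave 9658 peaks and 1441 chains, with 554 of 1020 tested genes higher (54.3%) and 200 lower (19.6%). The median was 0.262, 42.7% of peaks lay in such anchors and 90.0% of chains in 1 domain of 60 h. Chains of 4 or more gave 5361 peaks, 1098 chains, 339 higher, 120 lower and 0.254; chains of 8 or more gave 613, 55, 35, 5 and 0.780. With −log10 q of at least 5 there were 140 peaks and 25 chains, with 13 of only 17 tested genes higher (76.5%) and 1 lower (5.88%). The median was 1.20, with 43.6% of peaks in anchors and 96.0% of chains in 1 domain. With no GM peak within 1 kb there were 1668 peaks and 270 chains, with 123 of 179 tested genes higher (68.7%), 21 lower (11.7%) and a median of 0.459. With q of at most 0.05, added after the data were seen, there were 889 peaks and 152 chains. Of 97 tested genes, 71 were higher (73.2%) and 9 lower (9.28%), with a median of 0.471. These settings change how many peaks and genes enter, and over all 15303 genes tested 33.1% were called higher and 32.2% lower. Of 513 alternative values of 43 genes (36 by the naming rule and 7 more with a chained peak on their promoter window), 512 kept direction and call, and Hdac4, never called, ran from −0.079 to 0.010 as single libraries were left out. With the 6 libraries of 60 h and GM alone, Rbfox1 and Tceal5 did not pass the count filter and gave no value. Motif counts in 200-base or whole peak windows were not run, since no genome was used. With 1 peak list per condition, depth and replicate spread of the peaks are unknown.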
